A study of Mus musculus with 12 samples.

Results

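Thy1 and Usp2 are neighbouring genes on mouse chromosome 9, and their expression was examined with that of Rnf26, Mcam and Cbl, the next measured genes beside them, in sorted regulatory T cells of wild-type and Drak2-deficient mice of the NOD strain. These 5 genes were taken by symbol from the 19505 genes with a named row on the array, and each had 1 row. They were chosen by the measured values of these same 12 arrays, in which neighbouring Thy1 and Usp2 were both higher in NOD.Drak2-/- than in NOD, so the genotype differences of the 5 genes are given as a description, with no test. In the gene table of assembly GRCm38.p6, the 5 genes follow each other in the order Thy1, Usp2, Rnf26, Mcam and Cbl, with no other measured gene between them. The table places a long noncoding RNA model, Gm39325, between Thy1 and Usp2 and overlapping Usp2, and C1qtnf5 and Mfrp between Usp2 and Rnf26, and these have no row named here. Whether the probes of the Usp2 row also detect the overlapping model was not tested.

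The cells were sorted from lymph nodes of female mice 4 to 8 weeks old by a gate that kept CD4+ CD25+ cells with little CD45RB and no CD8. NOD mice, which are prone to autoimmune diabetes, gave 6 arrays and NOD.Drak2-/- mice gave the other 6, with 1 mouse per array, and the labels name no treatment. Stk17b encodes Drak2, a kinase known to dampen T cell receptor signalling, and the sources used here do not say how the Drak2-/- allele was made. Replicates are numbered 1 to 6 in NOD and 1 to 5 and 7 in NOD.Drak2-/-. The values are log2 expression values after RMA, which subtracts background, equalises the distributions of the arrays and combines the probes of each row into 1 value.

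The 5 genes encode 2 kinds of protein. Thy1 is a small glycoprotein held on the surface of mouse T cells, and also of fibroblasts and neurons, by a lipid anchor, and Mcam is an adhesion molecule of the immunoglobulin superfamily found on endothelial cells and pericytes. The other members act on ubiquitin, the small protein whose attachment marks proteins for degradation or changes their activity. Usp2 removes ubiquitin from proteins and is a known output gene of the circadian clock, Cbl is a ubiquitin ligase that limits signalling from antigen and growth factor receptors, and Rnf26 is a ubiquitin ligase of the endoplasmic reticulum known to act on the nucleic acid signalling adaptor Sting1.

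The promoter windows of Usp2 and of Rnf26, the measured gene beside it, are shown because these neighbours had differences of opposite sign. The difference of Rnf26 was small, at -0.14 (log2, SE 0.13). The windows come from RefSeq (GRCm38.p6), which gave a window from 250 bases before to 50 bases after the start for 4 of the 5 members. Thy1 is named only. The Usp2 window is chr9:44084670-44084969 on the plus strand and the Rnf26 window is chr9:44113002-44113301 on the minus strand, each written 5′ to 3′ with motif matches in capitals.
Usp2: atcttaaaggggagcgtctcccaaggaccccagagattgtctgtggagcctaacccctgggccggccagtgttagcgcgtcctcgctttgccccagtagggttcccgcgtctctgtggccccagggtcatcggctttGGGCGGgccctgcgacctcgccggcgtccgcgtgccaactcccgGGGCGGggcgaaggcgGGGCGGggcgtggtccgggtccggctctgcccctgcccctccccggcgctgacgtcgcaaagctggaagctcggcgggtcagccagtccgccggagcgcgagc
Rnf26: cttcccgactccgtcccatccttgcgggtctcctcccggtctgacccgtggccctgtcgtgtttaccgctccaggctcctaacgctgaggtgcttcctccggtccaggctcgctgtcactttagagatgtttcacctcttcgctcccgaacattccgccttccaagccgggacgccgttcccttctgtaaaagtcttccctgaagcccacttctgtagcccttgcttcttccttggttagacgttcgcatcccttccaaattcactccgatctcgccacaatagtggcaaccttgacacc
The capitals in the Usp2 window mark 3 matches to the GC box GGGCGG, and the Rnf26 window held none of the motifs searched. The search covered, on each strand, the GC box, the E-box CACGTG, the D-box TTATGTAA, the cyclic AMP response element TGACGTCA, the TATA box TATAAA, the CCAAT box, the ETS motif CCGGAAG and the interferon-stimulated response element. A GC box was present in 35.7% of all 32851 windows, an E-box in 7.15% and a D-box in 0.938%. The Mcam window held 5 GC boxes and 1 cyclic AMP response element, a motif present in 1.79% of windows, and the Cbl window held 4 GC boxes, of which 2 overlap. The windows of Usp2, Mcam and Cbl consisted of 71.7%, 72.7% and 74.0% G and C, that of Rnf26 of 57.3%, and the median over all windows was 52.7%. A match or its absence describes these letters only.

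As a measure of the limit of detection, the array carries 23 background rows whose probes have no target in the genome, and the mean of the brightest of them was 5.87 (log2). Of all genes, 58.3% had a mean below it. Stk17b, the targeted gene, averaged 10.52 ± 0.21 in NOD and 10.25 ± 0.15 (SD, n = 6 each) in NOD.Drak2-/-. The groups overlapped, and where the probes lie relative to the deleted part is unknown here, so the gene checks no single label. The T cell genes Cd3e (11.03 and 11.02), Cd3d (11.35 and 11.22), Cd3g (11.01 and 11.01), Ptprc (11.55 and 11.60) and Cd4 (9.67 and 9.87) were high in NOD and NOD.Drak2-/- alike. Cd8b1 (7.27 and 7.45) was also above that background row, whereas Cd8a (5.02 and 5.05) and Il2ra (4.82 and 5.00), which encodes CD25, were not, and Foxp3 had no row named here.

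Of the 2 surface protein genes, Thy1 lay well above background and had the higher values in NOD.Drak2-/-. Its log2 value in NOD ran from 8.00 in replicate 3, with a median of 8.24, to 8.80 in replicate 6. In NOD.Drak2-/- it ran from 8.55 in replicate 4, with a median of 9.35, to 9.99 in replicate 2. Of the 6 NOD.Drak2-/- arrays 5 lay above the highest NOD array, and replicate 4 (8.55) lay below NOD replicates 4 (8.78) and 6 (8.80), so the groups overlapped by that array. The means were 8.35 ± 0.36 and 9.34 ± 0.52 (SD, n = 6 each), a log2 difference of 0.99 (SE 0.22) or 1.99-fold. All 12 arrays had Thy1 above their own brightest background row. In bulk samples, more cells that carry a transcript and more of it per cell cannot be told apart.

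Mcam gave no signal above background in any array. It ran from 3.65 to 4.61 in NOD, with a median of 4.24, and from 3.91 to 4.50 in NOD.Drak2-/-, with a median of 4.01, and 0 of 12 arrays lay above their own brightest background row. Its log2 difference of -0.11 (SE 0.16) lies between values that cannot be told from background.

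Usp2, the deubiquitinase, had the higher values in NOD.Drak2-/- at a level close to background. In NOD its log2 value ran from 5.59 in replicate 6, with a median of 6.07, to 6.63 in replicate 5. In NOD.Drak2-/- it ran from 6.43 in replicate 4, with a median of 6.67, to 7.24 in replicate 7. NOD replicate 5 (6.63) lay above NOD.Drak2-/- replicates 2 (6.57) and 4 (6.43), while the other 4 NOD.Drak2-/- arrays lay above all NOD arrays. The means were 6.05 ± 0.36 (SD, n = 6) and 6.75 ± 0.29 (SD, n = 6), a log2 difference of 0.70 (SE 0.17) or 1.62-fold. Usp2 lay above the array's own brightest background row in 4 of 6 NOD and 5 of 6 NOD.Drak2-/- arrays, so part of its range lies where background limits the measurement.

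The ubiquitin ligase genes differed little between the genotypes. Cbl, at 9.47 ± 0.12 for NOD against 9.66 ± 0.19 for NOD.Drak2-/- (SD, n = 6 each), had a log2 difference of 0.19 (SE 0.11). NOD ran from 9.31 to 9.63 with a median of 9.46, and NOD.Drak2-/- from 9.43 to 9.95 with a median of 9.60, where only replicates 1 (9.95), 2 (9.83) and 5 (9.63) lay above the highest NOD array. Rnf26 had means of 6.57 ± 0.19 (SD, n = 6) and 6.43 ± 0.24 (SD, n = 6) and a log2 difference of -0.14 (SE 0.13). It ran from 6.31 to 6.86 in NOD, with a median of 6.57, and from 6.15 to 6.77 in NOD.Drak2-/-, with a median of 6.44. Rnf26 lay above the array's own brightest background row in 6 of 6 NOD and 4 of 6 NOD.Drak2-/- arrays, so it too lies close to background. For each of the 5 genes the groups overlapped.

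**Figure D1:**
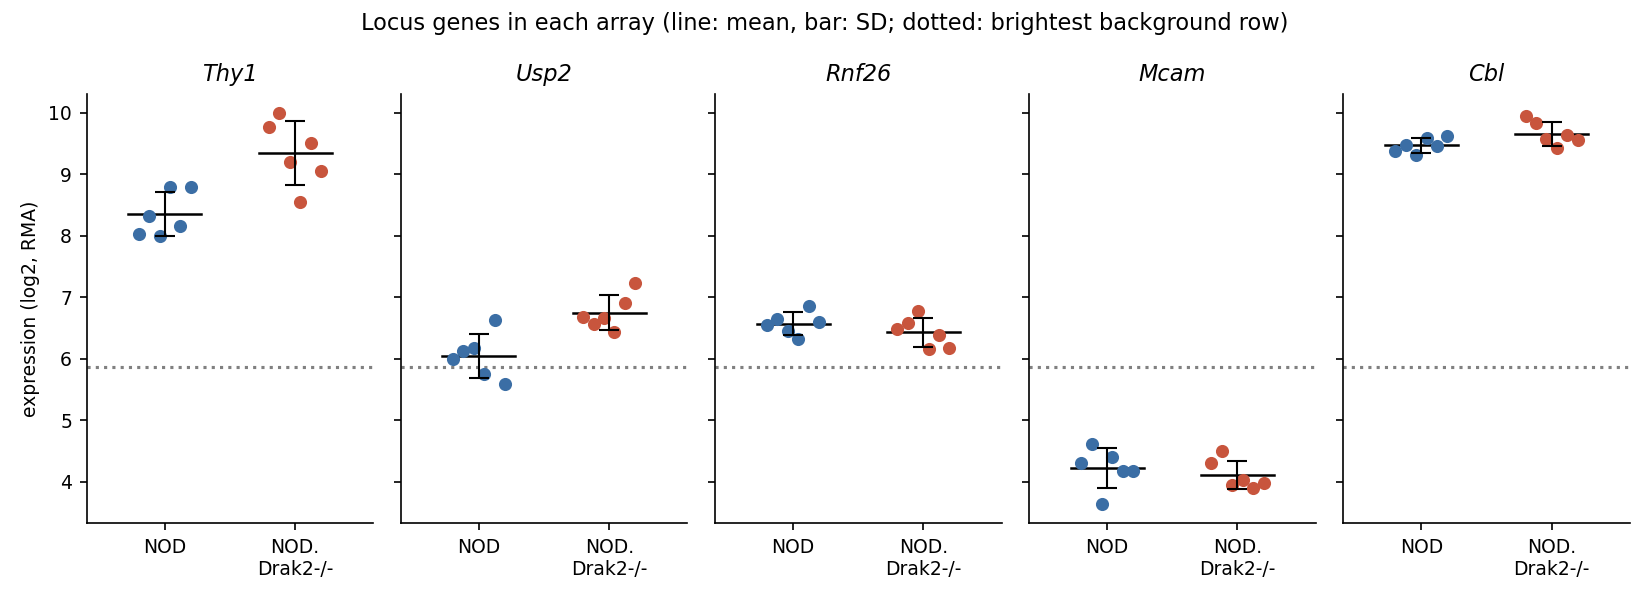
Log2 expression (y axis) of the 5 locus genes in each of the 6 NOD (blue) and 6 NOD.Drak2-/- (red) arrays, with the mean as a line and the SD as a bar, and the mean of the brightest background row (5.87) dotted. For Thy1 5 and for Usp2 4 NOD.Drak2-/- arrays sit above all NOD arrays, and Mcam lies below the dotted line throughout.

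Across all genes, the limma fit with Benjamini-Hochberg adjustment over the 19505 genes called 4 genes (0.0205%) at an adjusted p of 0.05, and 0 of the 5 members were among them, where 0.0154% of all genes were called higher and 0.00513% lower. Of the 5 members 3 had a positive difference, as had 45.9% of all genes. At an unadjusted p under 0.05 there were 2 members, Thy1 and Usp2, both positive, beside 9.43% of all genes (3.74% positive and 5.69% negative), and since this contrast chose them nothing is read from that count. By size of the positive difference Thy1 ranked 12 and Usp2 60 among all genes, so that 0.308% of genes had a difference at least that of Usp2. Of 19480 pairs of measured genes that follow each other along a chromosome, 2 had positive differences of at least that size in each gene. In 1 further pair both genes had negative differences of at least that size, but not both had a mean above the brightest background row. The positive pairs were Thy1 with Usp2 and, on chromosome 5, the transporter genes Abcb1a (log2 difference 1.63) and Abcb1b (0.98), which are close paralogs whose probes may share transcripts. The pair of Thy1 and Usp2 was chosen for this property, so its place among the pairs is a description.

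The neighbours of the pair showed no common shift. Besides the members, 47 genes lay within 25 measured genes on either side. Of these 20 had a positive and 27 a negative difference, and their median was -0.03 (log2) beside -0.02 over all genes. In limma 0 of the 47 passed at an adjusted p of 0.05, where 0.0205% of all genes did. At an unadjusted p under 0.05 4 were higher and 1 lower by mean in NOD.Drak2-/- (3.74% and 5.69% of all genes), or 10.6% of the 47 beside 9.43% of all genes. The groups overlapped for each of the 47, while they did not overlap for 0.513% of all genes. On the Thy1 side the next gene, Nectin1, a cell adhesion molecule, differed by 0.45 (SE 0.15, adjusted p = 0.469 in limma) at a level not above background, 4.14 in NOD and 4.59 in NOD.Drak2-/-. The largest difference of the 47 was that of Cxcr5, the receptor that guides lymphocytes to B cell follicles, which lies beyond Cbl. It ran from 5.77 to 6.49 in NOD and from 5.78 to 7.08 in NOD.Drak2-/-, with a log2 difference of 0.65 (SE 0.20, adjusted p = 0.469 in limma), and replicate 4 was again the lowest NOD.Drak2-/- array. Cxcr5 lay close to background, above the array's own brightest background row in 3 of 6 NOD and 5 of 6 NOD.Drak2-/- arrays. Ccdc84 followed with 0.47 (SE 0.21, adjusted p = 0.517 in limma). The largest negative differences were those of Abcg4 (-0.30), Ccdc153 (-0.28) and Clmp (-0.27), each at a level not above background, with adjusted p-values of 0.595, 0.615 and 0.519 in limma. The 18 neighbours with a mean above the brightest background row had 10 positive and 8 negative differences and a median of 0.08, beside 0.03 over all genes above that row.

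**Figure D2:**
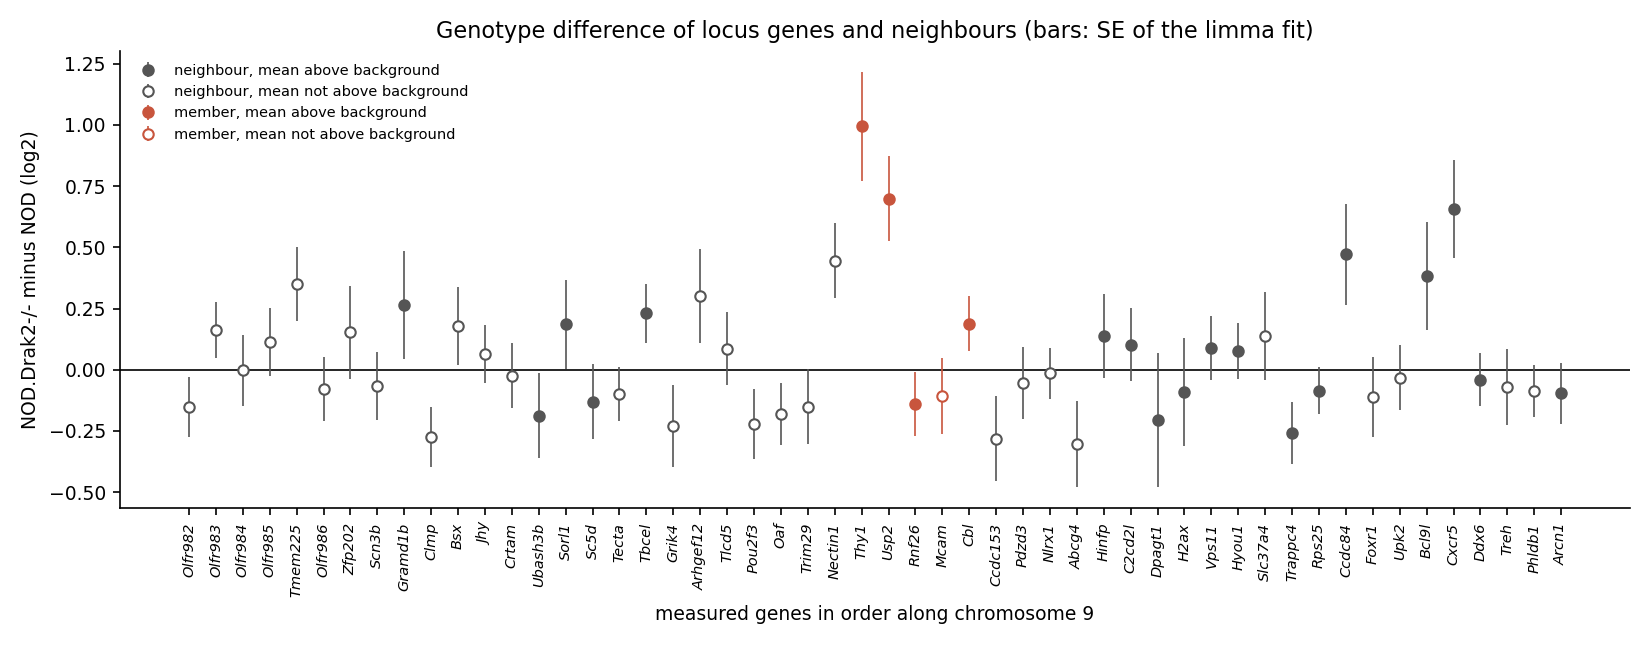
Log2 difference of NOD.Drak2-/- minus NOD (y axis, bars: SE of the limma fit, 6 arrays per genotype) for the 5 members (red) and 47 neighbours (grey) in their order along chromosome 9 (x axis), with open symbols for means not above the brightest background row. Thy1 (0.99) and Usp2 (0.70) stand at the top, Rnf26 and Mcam beside them lie below 0, and Cxcr5 (0.65) is the highest neighbour.

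Within a genotype, no relation between Thy1 and Usp2 from array to array passed the test. These deviations were not used in choosing the locus, and the 10 pairs of members were compared in each genotype, 20 relations in all, by two-sided exact permutation over all 720 orders of 6 arrays. Between Thy1 and Usp2, Pearson's r was -0.72 in NOD (exact permutation p = 0.0958, adjusted p = 0.479 over the 20 relations) and Spearman's rho was -0.71 (exact permutation p = 0.136, adjusted p = 0.681). NOD replicates 4 and 6 had the highest Thy1 and the lowest Usp2 values. Without these 2 arrays, the farthest from the Thy1 median, r was 0.20, so the negative value was not seen without them. The other NOD arrays span only 8.00 to 8.32 in Thy1. In NOD.Drak2-/- r was -2.88e-05 (exact permutation p = 1) and rho was 0.03 (exact permutation p = 1), and without the 2 farthest arrays r was -0.58. Over the 12 arrays with genotype means subtracted, r was -0.32, which ranked Usp2 5582 from the highest r with Thy1 among the 8127 other genes with a mean above the brightest background row.

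For Thy1 and Cbl a positive relation passed in NOD. In NOD r was 0.97 (exact permutation p = 0.00139, the smallest that 720 orders can give, adjusted p = 0.0278) and rho was 1 (exact permutation p = 0.00278, adjusted p = 0.0556). The relation thus passed by r. A rho of 1 already has the smallest two-sided p that ranks of 6 arrays can give. A single relation therefore could not pass by rho after adjustment over the 20 relations. In NOD.Drak2-/- r was 0.90 (exact permutation p = 0.0153, adjusted p = 0.153) and rho was 0.94 (exact permutation p = 0.0167, adjusted p = 0.167). Without the 2 arrays farthest from the Thy1 median r was 0.90 in each genotype. With each array centred on its median the NOD relation no longer passed, at an r of 0.96. The other 9 pairs passed in neither genotype. By r over the 12 arrays with genotype means subtracted (0.92), Cbl ranked 79 from the highest r with Thy1. This was among the 8127 other genes with a mean above the brightest background row. Genes outside the locus ranked higher, among them Cacnb1 (r = 0.97), so a close relation with Thy1 was not particular to its neighbours. Over the same 12 arrays both genes also had a high r with the difference between GC-rich and GC-poor background rows described below. It was 0.84 for Thy1 (rank 132) and 0.86 for Cbl (rank 69), beside a median of 0.02 over the 8128 genes above background. The part of this measure in their relation was not tested.

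**Figure D3:**
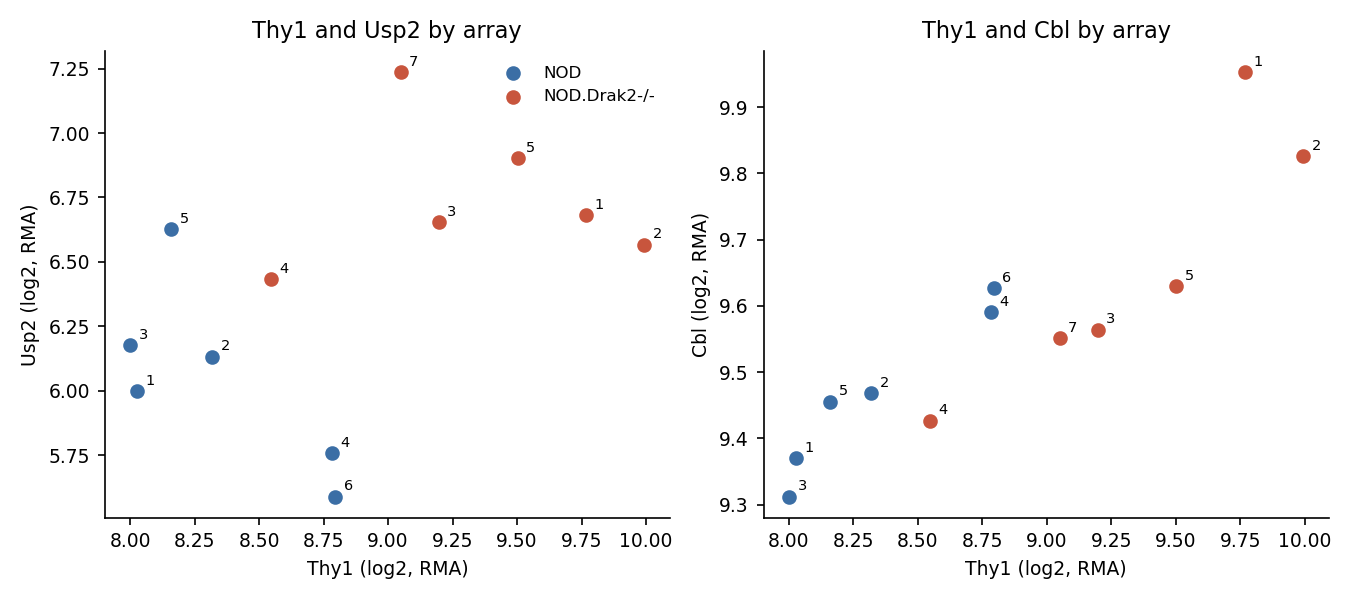
Log2 value of Usp2 (left, y axis) and Cbl (right, y axis) against that of Thy1 (x axis) in the 6 NOD (blue) and 6 NOD.Drak2-/- (red) arrays, labelled by replicate. Usp2 shows no rise with Thy1 within a genotype (r of -0.72 in NOD and -2.88e-05 in NOD.Drak2-/-), whereas Cbl lies higher where Thy1 does (0.97 and 0.90).

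The arrays differed in their background rows, and the members were set against this within each genotype, where no relation passed after adjustment. The background rows differ in their number of G and C bases, and the mean of the 5 richest minus that of the 5 poorest ran from 3.05 to 3.69 (log2) in NOD and from 3.04 to 3.73 in NOD.Drak2-/-. NOD.Drak2-/- replicates 1 and 2, with differences of 3.68 and 3.73, had the highest Thy1 (9.77 and 9.99) and Cbl (9.95 and 9.83) values, and replicate 4, with 3.04, had the lowest of each (8.55 and 9.43). Between this difference and Thy1, r was 0.71 in NOD (exact permutation p = 0.0958, adjusted p = 0.274) and 0.92 in NOD.Drak2-/- (exact permutation p = 0.00972, adjusted p = 0.111), with rho of 0.89 (exact permutation p = 0.0333, adjusted p = 0.167) and 0.94 (exact permutation p = 0.0167, adjusted p = 0.167). The adjustment is over 20 relations of the 5 genes with this measure and with the hybridization controls, and 0 of the 20 passed. Without the 2 arrays farthest from the median of the measure r was 0.33 and 0.80. For Cbl r was 0.76 and 0.94 and for Usp2 -0.18 and -0.21. For Cbl the exact permutation p was 0.0861 and 0.0111, with adjusted p-values of 0.274 and 0.111, and for Usp2 it was 0.724 and 0.726, with adjusted p-values of 0.855 each. Spearman's coefficient was 0.89 in each genotype for Cbl (exact permutation p = 0.0333, adjusted p = 0.167) and -0.49 and -0.09 for Usp2 (exact permutation p = 0.356 and 0.919, adjusted p = 0.646 and 0.919). Without the 2 farthest arrays r was 0.39 and 0.79 for Cbl and -0.55 and 0.28 for Usp2. In NOD these arrays are replicates 1 and 3, and the others span only 3.52 to 3.69 of the measure. The lower r of Thy1 and Cbl there cannot show whether their relations rest on the arrays left out.

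The genotype difference was also given with the measure as a covariate, an alternative chosen after seeing the data. The difference of Thy1 was then 1.10 (SE 0.14) in place of 0.99 (SE 0.22), that of Cbl 0.23 (SE 0.09) in place of 0.19 (SE 0.11) and that of Usp2 0.68 (SE 0.17) in place of 0.70 (SE 0.17). That fit called 7 genes (0.0359% of all genes), of which 1, Thy1, is a member, and nothing is read from this count for the reason given. The hybridization controls, transcripts added before hybridization, averaged 9.12 to 9.72 in NOD (median 9.44) and 8.95 to 10.71 in NOD.Drak2-/- (median 10.05). Between their mean and Thy1, r was 0.03 in NOD and 0.79 in NOD.Drak2-/- (exact permutation p = 0.946 and 0.0708, adjusted p = 0.992 and 0.274). For Cbl r was -0.13 and 0.69 and for Usp2 -0.38 and 0.20. With the mean of the controls as a covariate the difference of Thy1 was 0.73 (SE 0.21), that of Usp2 0.69 (SE 0.20) and that of Cbl 0.11 (SE 0.12).

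**Figure D4:**
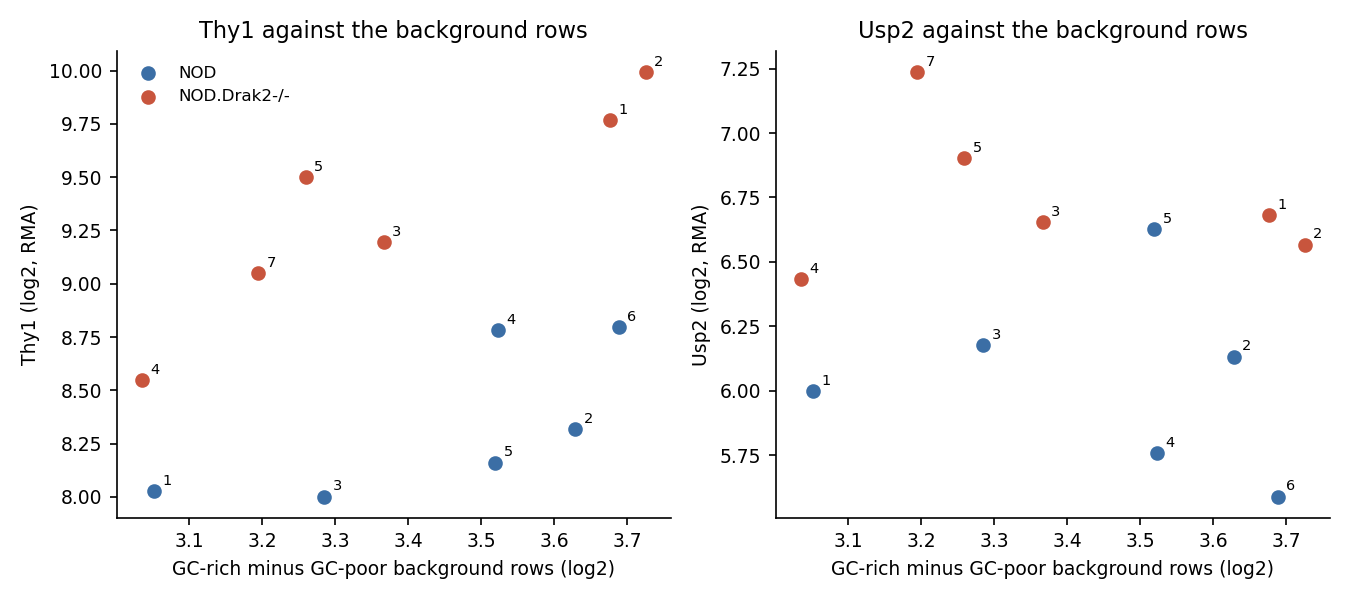
Log2 value of Thy1 (left, y axis) and Usp2 (right, y axis) against the mean of the 5 background rows richest in G and C minus that of the 5 poorest (x axis, log2) in the 6 NOD (blue) and 6 NOD.Drak2-/- (red) arrays, labelled by replicate. For Thy1 r is 0.71 in NOD and 0.92 in NOD.Drak2-/-, and for Usp2 -0.18 and -0.21, and none passed after adjustment.

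The genes most like each member of the pair were different. Likeness was Pearson's r over the 12 arrays after subtracting genotype means, among 7921 named genes with a mean above the brightest background row, and is a description with no test. Nearest to Thy1 were the calcium channel subunit gene Cacnb1 (r = 0.97), Pced1b (0.97), the ubiquitin-conjugating enzyme gene Ube2o (0.97), Gps2 (0.97) and the secretory carrier membrane protein gene Scamp3 (0.97). Their r with the difference between the background rows ran from 0.80 to 0.89, beside 0.84 for Thy1 itself, which likeness to Thy1 largely fixes, and 5.55% of all genes above background had an r beyond 0.8 in size. Nearest to Usp2 were the DNA polymerase gene Poli (r = 0.93), Ing5 (0.88), the epoxide hydrolase gene Ephx1 (0.86), the formin gene Diaph1 (0.86) and the autophagy gene Atg101 (0.86). Their r with the background rows ran from -0.60 to -0.08. None of these 10 genes lies among the neighbours on chromosome 9, and the genotype differences ran from 0.31 to 1.02 for those like Thy1 and from -0.13 to 0.10 for those like Usp2, and none passed in limma.

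Genes that share a role with the members were counted in lists, which were chosen with earlier results of these data known. In limma 0 members of any list passed at an adjusted p of 0.05, where 0.0205% of all genes did, and 23 of the 203 distinct list genes were at an unadjusted p under 0.05 (11.3%, beside 9.43% of all genes). For the counts of each list below, 45.9% of all genes had a positive difference, and 55.4% of those above the brightest background row. At an unadjusted p under 0.05, 3.74% of all genes were higher and 5.69% lower. Of the other deubiquitinases of the Usp family, 48 were measured, 28 of them higher and 20 lower by mean in NOD.Drak2-/- (median 0.04), and 5 positive and 3 negative at an unadjusted p under 0.05. Usp18, which removes the ubiquitin-like protein Isg15 and is induced by interferon, had a larger difference than Usp2 (1.10, SE 0.25, adjusted p = 0.388 in limma). Usp20, named after its values were seen, also had a larger difference than Usp2 (9.28 in NOD and 10.04 in NOD.Drak2-/-, difference 0.76, adjusted p = 0.47 in limma). Usp43 differed by -0.36 (adjusted p = 0.469 in limma), at a level not above background.

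Circadian clock genes, of which Usp2 is a known output, had differences of both signs. The list pools outputs, repressors and other parts of the clock, so its signs were no test of clock output. Of 21 measured genes 13 had a positive and 8 a negative difference (median 0.06), and 2 positive and 1 negative were at an unadjusted p under 0.05. Nfil3, a repressor of clock output that is also a regulator of effector T cells, differed by -0.61 (SE 0.19, adjusted p = 0.469 in limma) and Fbxl21, a ubiquitin ligase subunit, by 0.36 (SE 0.14, adjusted p = 0.485 in limma). Dbp, the output gene most often used as a readout of the clock, was named after its values were seen and averaged 8.93 in NOD and 9.10 in NOD.Drak2-/- (log2 difference 0.18, adjusted p = 0.66 in limma). Tef, likewise named after its values were seen, averaged 5.54 in NOD and 5.91 in NOD.Drak2-/- (log2 difference 0.37, adjusted p = 0.515 in limma). Its mean over all arrays was not above background. Fbxl21 and Tef were the 2 positive genes at an unadjusted p under 0.05.

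Around the ubiquitin ligases, 26 ligases of T cells and partners of Cbl were measured, 12 of them higher and 14 lower by mean in NOD.Drak2-/- (median -0.01). Of these 2 positive and 2 negative were at an unadjusted p under 0.05. Syk, a tyrosine kinase that Cbl binds, averaged 6.14 in NOD and 5.58 in NOD.Drak2-/-, a log2 difference of -0.56 (SE 0.12, adjusted p = 0.332 in limma), with groups that did not overlap, as was so for 0.513% of all genes. Its mean over all arrays was not above background, and it lay above the array's own brightest background row in 6 of 6 NOD but 2 of 6 NOD.Drak2-/- arrays. The ligase gene Traf6 differed by -0.34 (SE 0.10, adjusted p = 0.469 in limma). Of 17 genes of the Sting1 pathway around Rnf26, 13 had a positive and 4 a negative difference (median 0.09). That is 76.5% positive, beside 45.9% of all genes and 55.4% of those above the brightest background row. At an unadjusted p under 0.05 there were 3, all positive, or 17.6% beside 9.43% of all genes. These were Usp18 and Usp20, counted above, and the interferon-induced Irf7, which differed by 0.89 (SE 0.30, adjusted p = 0.469 in limma).

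Around the surface proteins, 25 genes of lipid-anchored and Ly6 proteins had 10 positive and 15 negative differences and a median of -0.10, with 1 in each direction at an unadjusted p under 0.05. Ulbp1, a ligand of the receptor that activates natural killer cells, differed by -0.64 (SE 0.25, adjusted p = 0.493 in limma) and Lypd6b by 0.54 (SE 0.25, adjusted p = 0.519 in limma), the latter not above background. Of 24 adhesion genes and binding partners of Thy1, 9 had a positive and 15 a negative difference (median -0.03), with 1 at an unadjusted p under 0.05, Nectin1. The lectin gene Lgals9 differed by 0.22 (SE 0.12, adjusted p = 0.586 in limma).

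Markers of other cells that carry Thy1 or Mcam were mostly at background. Of 19 stromal and endothelial markers 2 had a mean above the brightest background row, and 4 had a positive and 15 a negative difference, with 0 at an unadjusted p under 0.05. Their mean level per array ran from 4.26 to 4.57 in NOD and from 4.26 to 4.33 in NOD.Drak2-/-, and the brightest, Pecam1 (9.12 and 9.23), is also expressed by T cells. The other marker above the row was the collagen gene Col1a1, at 6.66 in NOD and 6.57 in NOD.Drak2-/-. The smallest p-values among the 19 markers were those of Rgs5 (-0.22, adjusted p = 0.564 in limma) and Cdh5 (-0.31, adjusted p = 0.587), neither above background. For B cells (5 markers) the per-array mean ran from 5.01 to 5.30 in NOD and from 4.89 to 5.48 in NOD.Drak2-/-, with 2 positive and 3 negative differences and 2 at an unadjusted p under 0.05. These 2 had opposite signs, Cd79b (5.89 and 6.37, adjusted p = 0.436 in limma), the only marker of the list above the background row, and Pax5 (4.92 and 4.39, adjusted p = 0.526). For myeloid and dendritic cells (8 markers) it ran from 4.28 to 4.64 and from 4.41 to 4.73, with 0 markers above that row, 4 differences of each sign and 1 at an unadjusted p under 0.05. That was Csf1r (4.29 and 4.84, adjusted p = 0.469 in limma), and Fcgr3 followed (4.99 and 4.72, adjusted p = 0.543). For natural killer cells (4 markers) it ran from 3.79 to 4.21 and from 3.61 to 4.26, with 2 differences of each sign. Eomes (5.84 and 6.26, adjusted p = 0.517 in limma), which T cells can also express, was the only one above the row and at an unadjusted p under 0.05, and Klrb1c followed (2.94 and 2.80, adjusted p = 0.784). The 1 measured erythroid marker, Alas2, averaged 5.85 and 5.93. Of the 8 gate genes 0 were at an unadjusted p under 0.05. The 6 measured markers of regulatory T cells averaged 8.81 to 9.17 in NOD and 8.96 to 9.13 in NOD.Drak2-/-, where Ctla4 differed by -0.21 (adjusted p = 0.616 in limma) and Ikzf2 by 0.18 (adjusted p = 0.641 in limma). The part of other cells in the differences of Thy1 and Usp2 was not tested.

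**Figure D5:**
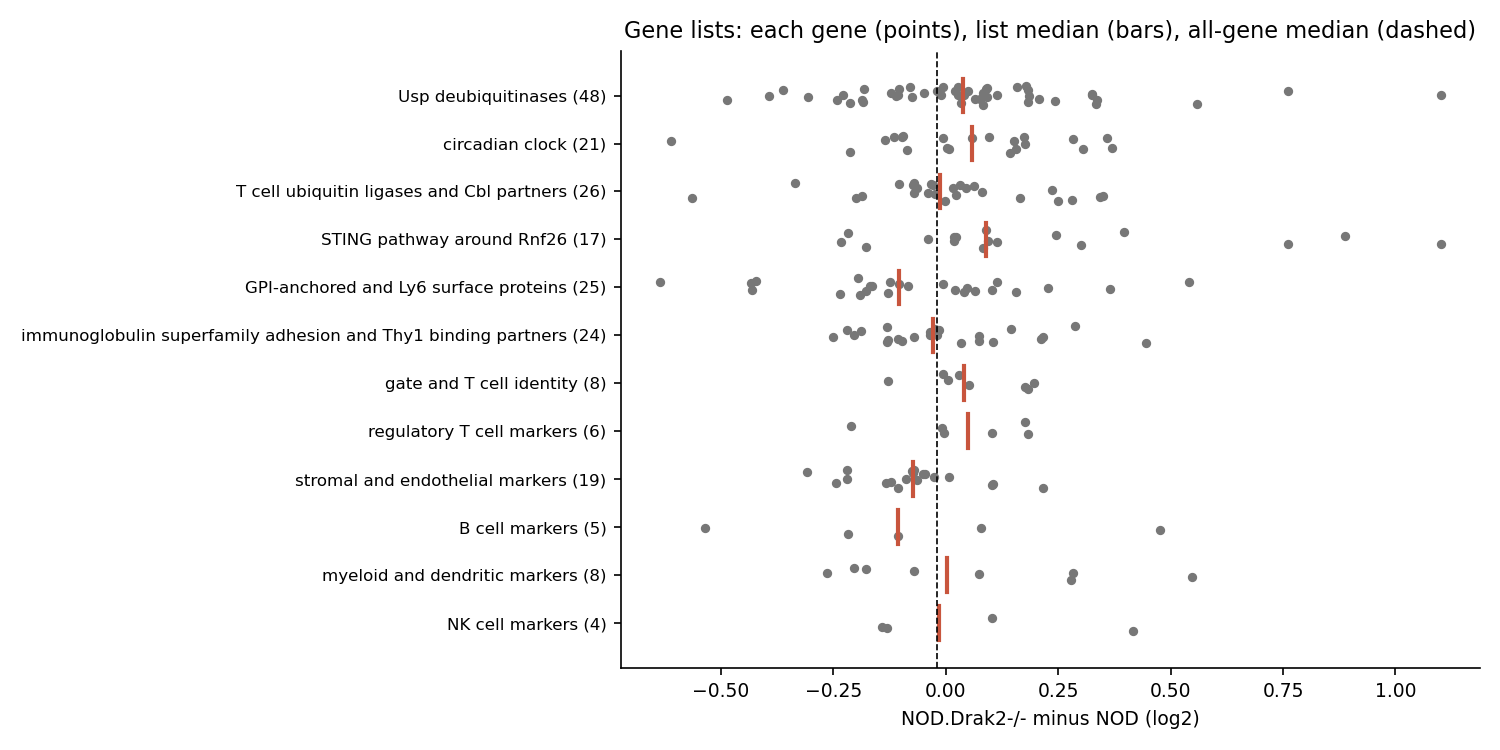
Log2 difference of NOD.Drak2-/- minus NOD (x axis) of each measured gene (points) in 12 lists (y axis, number of genes in brackets), with the list median as a bar and the median of all genes (-0.02) dashed. The list medians lie between -0.11 and 0.09, and Usp18 (1.10) is the point farthest to the right.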

How the data were processed

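Regulatory T cell RNA of 12 mice (6 NOD, 6 NOD.Drak2-/-) was measured on 12 arrays of 1 colour, from 125 ng of RNA per array, per the labels' protocols. The authors' deposited values are log2 values, made with RMA in oligo per the submitters' processing notes, which as used here give no versions. Arrays have no read depth, and precision is limited by their number.

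Of 29129 rows, 19572 had exactly 1 gene symbol in the platform annotation, and the brightest row per symbol gave 19505 genes, all found in the GRCm38.p6 gene table, from which names and gene order were taken. The build of the array's annotation is unknown here, so only the RefSeq promoter windows have coordinates. Array medians lay between 5.18 and 5.34. The genotypes were compared with limma 3.58.1 (R 4.3.3, lmFit and eBayes without covariates), with Benjamini-Hochberg adjustment over all genes, no filter and a threshold of 0.05, and adjusted p-values of genes are from that fit. This step was checked on simulated data. Relations within a genotype used two-sided exact permutation in Python 3.11.15.

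The members and lists were chosen with earlier results of these data known. Genes named are the 5 members, the 3 largest differences per direction among neighbours, per list the genes past the threshold or else the 2 smallest p-values, the gate genes, Stk17b and the 5 genes most like Thy1 and Usp2, with Gm and Rik models left out. Other names, among them the brightest marker of a list, were added after values were seen. Alternatives left out each array in turn and changed the scaling, the filter on dim genes, the spread estimate, the array weights, the replicate numbers as a block and, added later, 2 technical covariates.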

Additional observations from a re-analysis of the deposited data

Results flagged for a closer look

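Of 44 groups of 6 arrays examined, 5 held an array whose gap to the nearest other array took most of the range of its group, where chance gives about 1 in 20. Stk17b was lowest among the NOD.Drak2-/- arrays in replicate 2 (9.97). Among the NOD.Drak2-/- arrays the mean of the stromal and endothelial markers was highest in replicate 2 (4.33), below the highest NOD array (4.57). The mean of the myeloid and dendritic markers was highest in NOD.Drak2-/- replicate 1 (4.73). Cd3e was lowest among the NOD arrays in replicate 1 (10.93). Cd8a was lowest among the NOD.Drak2-/- arrays in replicate 4 (4.49). No array stood apart in this way for any of the 5 locus genes.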

How the results depend on the processing

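The differences of the 5 members kept their sign under each of 17 alternatives, moving by less than the SD of either genotype. Thy1 and Usp2 were chosen for large differences in these arrays, so for them the kept sign is no test. Leaving out each array gave 0.86 to 1.15 for Thy1, 0.60 to 0.81 for Usp2, 0.13 to 0.23 for Cbl, -0.21 to -0.08 for Rnf26 and -0.22 to -0.03 for Mcam (log2), and the other alternatives gave 0.73 to 1.14, 0.51 to 0.76, 0.11 to 0.25, -0.17 to -0.07 and -0.14 to -0.02. The 5 genes have 1 row each, so averaging rows was not run. Of all genes limma called 4, 1 to 2 without 1 array, 0 with the replicate block (1519 at an unadjusted p under 0.05), 2 with the hybridization controls as covariate and 7 with the background rows as covariate. Of the members 0 were called except 1, Thy1, in the last of these fits, from which nothing is read since the same values chose it, and of neighbours and list genes 0 under each alternative. Same-numbered arrays of the 2 genotypes correlated from -0.18 to 0.09 in their deviations over genes. These values show no pairing by number, and whether same-numbered mice were handled together is unknown here. In the block fit NOD replicate 6 and NOD.Drak2-/- replicate 7 have no partner, so the differences come from replicates 1 to 5 only. With the block Thy1 differed by 1.14 and Usp2 by 0.51. The r of Thy1 with Usp2 in NOD.Drak2-/- turned to 0.10 with centred medians and ran from -0.71 to 0.44 without 1 array, so it has no settled sign, and in NOD it ran from -0.87 to -0.56. The r of Thy1 with Cbl in NOD was 0.96 with centred medians, no longer past the threshold, and 0.95 to 0.99 without 1 array, where 5 arrays are too few to pass. In NOD.Drak2-/- it ran from 0.86 to 0.98.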
